A study of Mus musculus with 6 samples.

Results

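The ARF GTPases of the mouse, Arf1, Arf2, Arf3, Arf4, Arf5 and Arf6, were followed in the transcriptome of hematopoietic stem cells with and without a conditional deletion of Rbfox2. All 6 paralogs were found by symbol among 22969 gene identifiers, and all 6 passed the filter on low counts. The family was chosen from the control against Rbfox2-deleted contrast itself, because Arf4 was among the genes with the smallest p there. Levels and differences of the members in that contrast are therefore given as a description, with no test.

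The cells were LSK CD150+ CD48- stem cells of adult C57BL/6 bone marrow, about 500 per library, and the libraries were made by Smart-seq2. Both groups carried floxed Rbfox2 alleles (Rbfox2-fl/fl). The series design gives 3 mice per group. The 3 control libraries had no other allele named, and the 3 libraries labelled Rbfox2-deleted (called deleted 1, 2 and 3 below) also carried Vav1-cre, a transgene that is active across blood cells and not only in stem cells. The exons removed by the deletion were not stated in the labels.

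ARF proteins are small GTPases that carry a myristoyl group at their amino end and, when bound to GTP, settle on membranes and recruit coats and lipid enzymes. Arf1, Arf2 and Arf3 form class I, Arf4 and Arf5 class II, and Arf6 class III. Class I and II proteins act at the Golgi and in traffic between the Golgi and the endoplasmic reticulum, where Arf1 recruits the COPI coat. Arf6 acts mainly at the plasma membrane and on endosomes, so the family as a whole is wider than the Golgi.

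The 5′ ends of the coding sequences show the class structure and the invariant glycine codon that is myristoylated. Below are the first 60 coding bases of each member from GENCODE M21 transcripts, with the start codon and the glycine codon in capitals.
Arf1: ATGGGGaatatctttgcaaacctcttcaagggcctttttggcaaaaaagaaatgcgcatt
Arf2: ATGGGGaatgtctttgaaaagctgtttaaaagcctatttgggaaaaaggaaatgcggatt
Arf3: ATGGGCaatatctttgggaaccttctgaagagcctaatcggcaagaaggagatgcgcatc
Arf4: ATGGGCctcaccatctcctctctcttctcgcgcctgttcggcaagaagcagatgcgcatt
Arf5: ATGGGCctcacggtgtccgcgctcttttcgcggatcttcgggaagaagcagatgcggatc
Arf6: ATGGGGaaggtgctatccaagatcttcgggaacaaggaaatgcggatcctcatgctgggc
The codon after the start was GGG in Arf1, Arf2 and Arf6 and GGC in Arf3, Arf4 and Arf5. Over the translated coding sequences, Arf1 was 96.1% identical to Arf3 and 95.6% to Arf2, and Arf4 was 90.0% identical to Arf5. Across classes, Arf4 shared 80.7% of residues with Arf1 and 63.9% with Arf6. Class I proteins had 181 residues, class II 180 and Arf6 175.

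Whether reads can be told apart matters more for nucleotides than for residues. Coding identity was 83.7% between Arf1 and Arf3, 80.6% between Arf1 and Arf2 and 78.6% between Arf4 and Arf5. The longest exact run shared by the coding sequences of any 2 members was 39 bases, between Arf1 (from coding base 192) and Arf6 (from coding base 180).
Arf1 and Arf6: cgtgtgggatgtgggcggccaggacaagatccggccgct
For Arf4, the longest run shared with another member was 18 bases, with Arf3. No window of 50 bases in the transcript examined for one member occurred in an annotated transcript of another member. Of the 50-base windows of Arf1, 12.2% also occurred in annotated transcripts of other loci, AC127331.2 and Gm19587, which have no row in the count table. For Arf4 that share was 2.88% and came from its antisense transcript Arf4os, and for Arf2 and Arf5 it was 0%. For Arf6 it was 7.68%, all with Gm9887, and for Arf3 0.354%. The handling of reads that match several places was not stated.

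On mm10, Arf1 (ENSMUSG00000048076) lies on chromosome 11 from 59211412 to 59228270 on the minus strand, and Arf2 (ENSMUSG00000062421) on chromosome 11 from 103966739 to 103985337 on the plus strand. Arf3 (ENSMUSG00000051853) lies on chromosome 15 from 98736634 to 98763214 on the minus strand. Arf4 (ENSMUSG00000021877) lies on chromosome 14 from 26638074 to 26665084, Arf5 (ENSMUSG00000020440) on chromosome 6 from 28423560 to 28426602, and Arf6 (ENSMUSG00000044147) on chromosome 12 from 69372150 to 69373783, all 3 on the plus strand. All are protein coding. Exons of Arf4 overlap those of Pde12, on the other strand, over 527 bases, and exons of Arf5 overlap those of Gcc1 over 313 bases. Exons of Arf6 overlap those of Gm9887, on the other strand and with no row in the count table, over 209 bases. Pde12 had at most 438 counts in a library and Gcc1 at most 12, against at least 4938 for Arf4 and 1651 for Arf5. Smart-seq2 keeps no strand, so reads in these overlaps cannot be assigned to one gene.

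The libraries held between 23474895 and 55151484 counts, and each one labelled Rbfox2-deleted held fewer than any control. Controls 1 and 3 were nearly the same library in their counts, their chi-square over degrees of freedom being 3.44 against at least 156 for the other pairs, so they were summed to 1 sample (n = 2 control, n = 3 Rbfox2-deleted). They still differed by more than Poisson noise. Rbfox2 had 238, 11 and 250 counts in controls 1, 2 and 3 and 2, 87 and 10 in deleted 1, 2 and 3, so control 2 and deleted 2 go against their labels and each direction below rests on the labels. Deleted 1 and 3 carried the female transcript Xist (2821 and 2467 counts) and the other 4 libraries the Y-linked Eif2s3y (576 to 1560). Gate genes were present, with Kit at 73.1 to 206 CPM and Slamf1 at 9.95 to 60.2 CPM. Ly6a, which encodes the gate marker Sca-1, did not overlap between the groups, at 632, 815 and 665 CPM in controls 1, 2 and 3 and 330.0, 336 and 423 CPM in deleted 1, 2 and 3. Cd48 was at 0 in all but deleted 3, at 0.0900 CPM. The 7 markers that the sort removes summed to between 0.310 and 9.03 CPM.

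Arf4 was the member whose lowest library labelled Rbfox2-deleted lay the most times above its highest control. It had 4938, 5292 and 5604 counts in controls 1, 2 and 3, and 8051, 13150 and 12399 counts in deleted 1, 2 and 3, so even the raw counts were higher in the shallower libraries. As CPM, each count divided by the total of its library and put on a common scale, these are 103, 102 and 102 in the controls and 343, 369 and 372 in deleted 1, 2 and 3. The groups did not overlap, and the 3 controls, of which 1 and 3 count as 1 sample, lay within 2 CPM of each other. In 500 pooled cells, more cells that express Arf4 and more Arf4 RNA per cell cannot be told apart, and this holds for every member.

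After TMM scaling, which adjusts each library total for its composition, Arf4 averaged 106 ± 6.06 CPM over the 2 control samples (SD, n = 2) and 356 ± 45.8 CPM over deleted 1, 2 and 3 (SD, n = 3). The fitted log2 fold change was 1.75 (SE 0.274), or 3.36-fold. The lowest library labelled Rbfox2-deleted was 2.90-fold above the highest control. Relative to the control mean, deleted 1, 2 and 3 lay at 1.94, 1.69 and 1.59 on the log2 scale. Deleted 2, the library of that group that carries Eif2s3y as the controls do, lay between deleted 1 and 3. It was at 341 scaled CPM against 101 and 110 in the 2 control samples. Deleted 2 had 87 Rbfox2 counts, and control 2, with 11, was the sample at 110 scaled CPM, so both go against their labels. The part of sex or of Rbfox2 level was not tested.

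**Figure D1:**
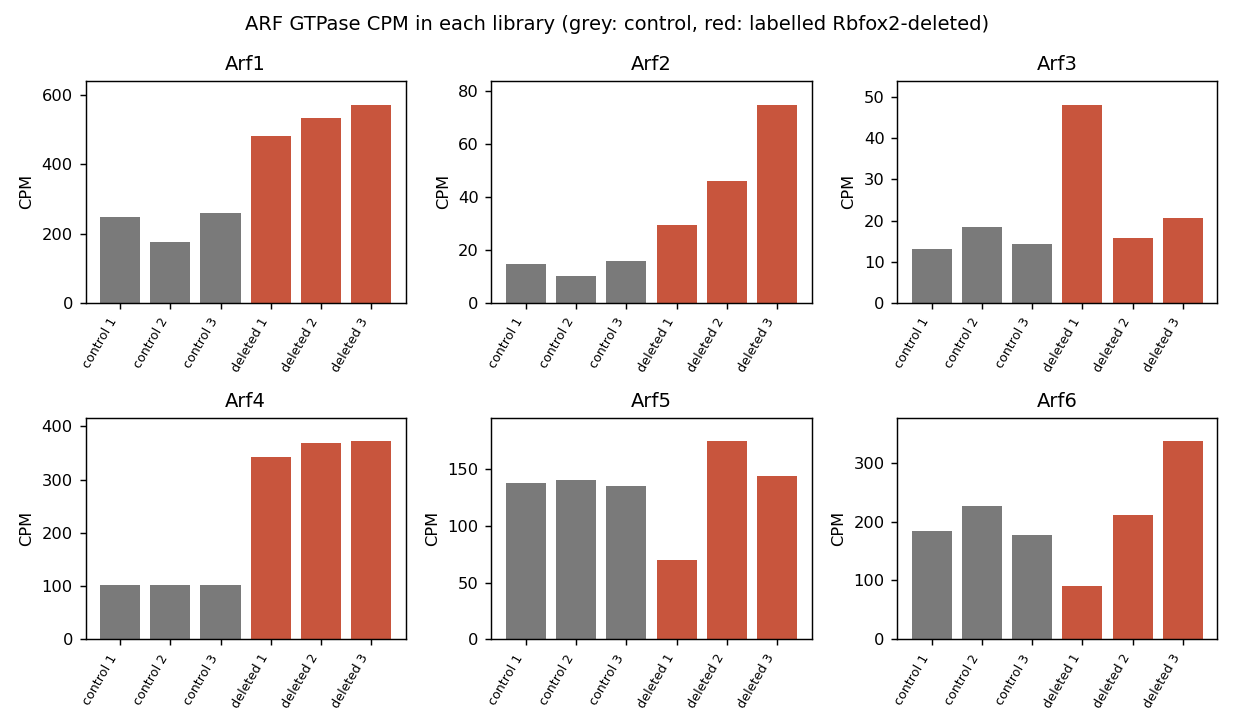
CPM of each ARF member (y axis, linear from 0, scaled per panel) in the 6 libraries (x axis), with controls in grey and libraries labelled Rbfox2-deleted in red. Bars are single libraries, so no error bar is drawn. Arf1, Arf2 and Arf4 are higher in all 3 red bars than in any grey bar, and Arf3, Arf5 and Arf6 are not.

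Arf1, the most studied class I member and the recruiter of COPI, also differed without overlap. It had 248, 176 and 258 CPM in controls 1, 2 and 3 and 481, 535 and 572 CPM in deleted 1, 2 and 3. Scaled means were 220.3 ± 44.0 CPM over the control samples (SD, n = 2) and 519 ± 45.3 CPM over deleted 1, 2 and 3 (SD, n = 3), a fitted log2 fold change of 1.24 (SE 0.260). Its controls were less even than those of Arf4, because control 2 lay 0.41 below the summed controls 1 and 3 on the log2 scale. The lowest library labelled Rbfox2-deleted was still 1.95-fold above the highest control.

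Arf2, a class I member that humans lack, was scarce but showed the largest fitted log2 fold change of the family, 1.88 (SE 0.682), or 3.68-fold. It had 14.5, 9.95 and 15.6 CPM in controls 1, 2 and 3 and 29.5, 45.9 and 74.8 CPM in deleted 1, 2 and 3. Even the lowest of these rests on 514 counts. The 3 libraries labelled Rbfox2-deleted spread widely, from 1.45 to 2.32 on the log2 scale relative to the control mean, yet all lay above both control samples. The lowest of them was 2.34-fold above the highest control.

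Arf3, the remaining class I member, separated 1 library and not the groups. It had 13.0, 18.5 and 14.3 CPM in controls 1, 2 and 3, and 48.2, 15.7 and 20.6 CPM in deleted 1, 2 and 3. Deleted 1 was far above the rest, while deleted 2 and 3, at 14.5 and 17.7 scaled CPM, lay between the 2 control samples at 13.6 and 19.9. The fitted log2 fold change was 0.83, and it was -0.072 without deleted 1 and -0.20 with sex as a covariate. The scaled mean of 29.8 ± 23.8 CPM over deleted 1, 2 and 3 (SD, n = 3) against 16.7 ± 4.41 over the control samples (SD, n = 2) therefore rests on deleted 1. With sex as a covariate, the group difference rests on deleted 2 alone, because only deleted 2 of its group carried Eif2s3y as the controls did.

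Arf5, the class II partner of Arf4, showed no such separation. It had 138, 141 and 136 CPM in controls 1, 2 and 3 and 70.3, 175 and 144 CPM in deleted 1, 2 and 3. The controls were even, and in CPM deleted 1 lay well below them and deleted 2 and 3 above. After TMM scaling only deleted 2, at 162 CPM, lay above the control samples at 135 and 152, with deleted 1 at 83.5 and deleted 3 at 124 below both. The fitted log2 fold change was -0.22, and it was 0.17 with sex as a covariate, a fit whose group difference rests on deleted 2 alone. Arf6, the class III member, was likewise spread on both sides of the controls, with 183, 226 and 177 CPM in controls 1, 2 and 3 and 90.7, 211 and 336 CPM in deleted 1, 2 and 3. Its fitted log2 fold change of -0.09 became 0.18 without deleted 1 and 0.16 without control 2. Neither of these 2 members had a direction that survived those alternatives.

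In all, 3 of 6 members lay above both control samples in every library labelled Rbfox2-deleted, where 14.9% of the 12350 genes tested did. No member lay wholly below, where 17.2% of genes did. Since the family was picked on this contrast, nothing is read from the count against its background. The median fitted log2 fold change of the members was 1.03, against 0.11 over all genes tested. In the order of fitted fold changes from the top, Arf2 was at rank 1002, Arf4 at 1211 and Arf1 at 2286, so many genes had larger ones. The edgeR quasi-likelihood test with Benjamini-Hochberg adjustment called 0% of all genes tested, with 1221 genes at an unadjusted p under 0.05, while DESeq2 called 3.37% of 14137 genes.

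**Figure D2:**
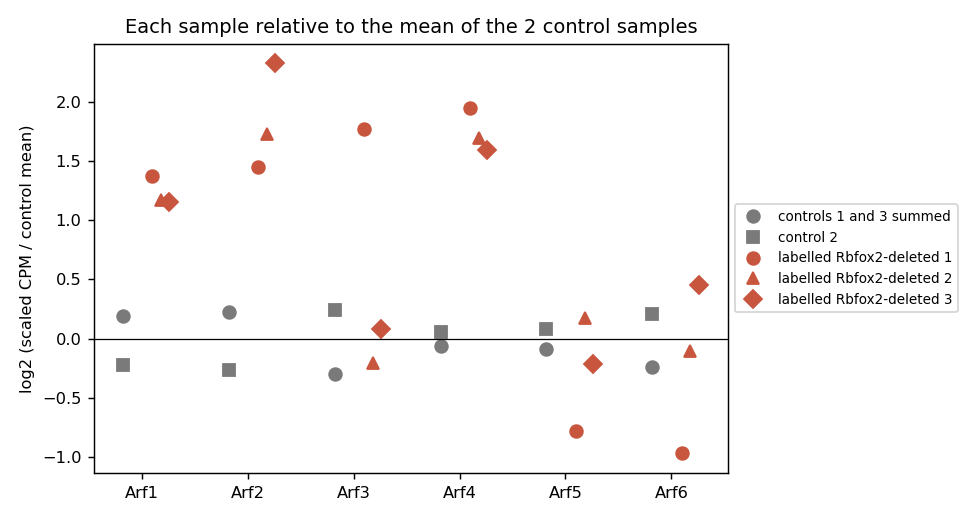
TMM-scaled CPM of each sample relative to the mean of the 2 control samples, on a log2 axis, for each ARF member on the x axis. Grey points are the 2 control samples and red points the 3 libraries labelled Rbfox2-deleted. The red points of Arf4 run from 1.59 to 1.94 and those of Arf1 from 1.16 to 1.38, while for Arf3, Arf5 and Arf6 deleted 1 lies at one end of the range.

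Deleted 1 lay at one end of the range of each member that did not separate. It had the highest Arf3 level and the lowest Arf5 and Arf6 levels of all 6 libraries, whereas its scaled Arf4 and Arf1 levels were also the highest. The same library had the fewest counts and 14154 genes detected, against at least 15950 in the others. Erythroid markers summed to 483 CPM in it, against 67.2 to 172 CPM elsewhere, and megakaryocyte markers to 44.0 CPM, against 145 to 285 CPM. The defining megakaryocyte genes Pf4 and Ppbp were at 0 in deleted 1, and the globin Hba-a1 was at 152 CPM against at most 19.5 CPM elsewhere. Of the 8 marker lists, 3 had sums that did not overlap between the groups, all lower in deleted 1, 2 and 3. Among all genes tested, 17.2% lay below both control samples in every library labelled Rbfox2-deleted and 14.9% above, so nothing is read from this count. Megakaryocyte markers summed to 277 to 285 CPM in controls and 44.0 to 256 CPM in libraries labelled Rbfox2-deleted. Of these markers, Gp9 was at 135 to 186 CPM in controls and 33.4 to 130 CPM in libraries labelled Rbfox2-deleted. In deleted 3, Itga2b was higher, at 44.9 CPM against 12.3 to 15.5 CPM in controls. Pf4 was at 59.4 CPM there, as in control 3. Neutrophil and monocyte markers, mostly Lyz2 and Prtn3, summed to 1960.9 to 2914 and 1694 to 1929 CPM. S100a8 of this list was higher in deleted 1, at 56.7 CPM against at most 13.5 CPM in controls. B cell markers, mostly Cd79b, summed to 214 to 331 and 139 to 195 CPM. The part of these differences in the ARF values was not tested.

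After scaling, the summed level of the family was even within groups. Together the 6 members took 0.0700%, 0.0674% and 0.0702% of the counts in controls 1, 2 and 3 and 0.106%, 0.135% and 0.152% in deleted 1, 2 and 3. The scaled sum was 710 ± 20.5 CPM over the control samples (SD, n = 2) and 1272 ± 27.9 CPM over deleted 1, 2 and 3 (SD, n = 3). Relative to its level, the scaled sum varied less among deleted 1, 2 and 3 than any single scaled member did. High scaled Arf1 and Arf4 in deleted 1 stood beside low Arf5 and Arf6. Both statements depend on the scaling. In plain CPM the sum was 1063, 1352 and 1520 in deleted 1, 2 and 3, and Arf4 varied less, at 343, 369 and 372. Plain Arf4 and Arf1 were lower in deleted 1 than in deleted 2 and 3, with Arf1 at 481, 535 and 572 CPM.

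Levels of different paralogs were compared only per length, as CPM per kb of merged exons. In control, Arf6 had 132 ± 21.4, Arf1 103 ± 26.2, Arf5 72.8 ± 1.67, Arf4 28.4 ± 0.0333, Arf2 4.18 ± 1.21 and Arf3 3.34 ± 0.698 CPM per kb (SD, n = 2 each). Arf6 and Arf1 did not differ beyond their spread, and changed places between the 2 control samples, as did Arf2 and Arf3. In libraries labelled Rbfox2-deleted the order was Arf1 at 253 ± 21.9, Arf6 at 138.6 ± 79.97, Arf4 at 100.3 ± 4.41, Arf5 at 68.0 ± 28.1, Arf2 at 16.7 ± 7.65 and Arf3 at 5.84 ± 3.63 CPM per kb (SD, n = 3 each). Arf1 was first in each of these 3 libraries, and Arf4 lay above Arf5 in each, whereas Arf5 lay above Arf4 in every control. Arf6, Arf4 and Arf5 did not all differ beyond the spread, because deleted 1 had Arf6 at 59.1 CPM per kb and deleted 3 had it at 219.

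The length used moves the order among Arf1, Arf5 and Arf6. With the longest coding transcript in place of merged exons, Arf5 came second in all 3 controls, with 121 to 126 CPM per kb, because its longest transcript has 1116 bases and its merged exons 1907. Arf4 was in the fourth place in the controls by either length. In deleted 1 and 2 it moved to second by transcript length, and in deleted 3 to the third place, at 158 to 172 CPM per kb.

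The share of each paralog in the family total does not depend on how libraries are scaled. Per kb of merged exons, Arf4 made up 8.26%, 8.33% and 8.15% of the family in controls 1, 2 and 3 and 21.6%, 16.9% and 14.7% in deleted 1, 2 and 3. The mean was 8.26% ± 0.0956 over the control samples (SD, n = 2) and 17.7% ± 3.498 over deleted 1, 2 and 3 (SD, n = 3), a difference of 9.46 percentage points. Arf1 made up 34.2%, 24.7% and 35.7% in the controls and 52.2%, 42.2% and 39.1% in deleted 1, 2 and 3. Arf2 made up 1.39%, 0.973% and 1.504% in the controls and 2.23%, 2.52% and 3.56% in deleted 1, 2 and 3, and Arf3 was at most 2.26% in any library. Arf5 made up 20.5% to 21.7% in controls and 8.36%, 15.1% and 10.8% in deleted 1, 2 and 3. Arf6 made up 33.3% to 43.2% in controls and 13.4%, 22.7% and 31.2% in deleted 1, 2 and 3. Shares of Arf5 and Arf6 did not overlap between the groups although their CPM did. A share falls when other members are higher, but also when the member itself is lower. In deleted 1, Arf5 was at 70.3 CPM against 136 to 141 in controls, and Arf6 at 90.7 against 177 to 226. Scaled Arf5 was also below both control samples in deleted 3, at 124 CPM against 135 and 152, but its plain CPM there, 144, was above every control. Arf5 in deleted 2, at 175 CPM, and Arf6 in deleted 3, at 336 CPM, were above every control although their shares were lower.

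**Figure D3:**
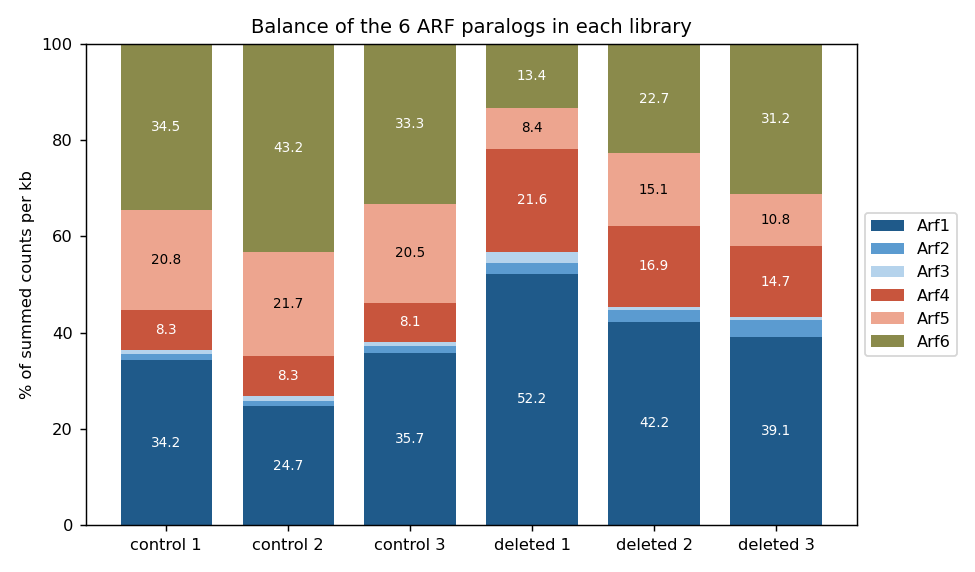
Share of each ARF paralog in the summed counts per kb of merged exons (y axis, percent), stacked for each of the 6 libraries (x axis). Blue shades are class I, red shades class II and green class III, with shares above 6% written in the bars. Arf4 takes 8.15% to 8.33% in controls and 14.7% to 21.6% in libraries labelled Rbfox2-deleted.

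By class, the share of class II differed by less than its spread, while its 2 members changed places. Class II made up 29.4% ± 0.800 of the family in control (SD, n = 2) and 29.1% ± 3.31 over deleted 1, 2 and 3 (SD, n = 3). Within class II, Arf4 took 28.4%, 27.8% and 28.4% in controls 1, 2 and 3 and 72.1%, 52.8% and 57.7% in deleted 1, 2 and 3. The raw count ratio of Arf4 to Arf5 was 0.748, 0.726 and 0.750 in the controls and 4.88, 2.11 and 2.58 in deleted 1, 2 and 3. Class I went from 32.0% ± 7.43 in control (SD, n = 2) to 48.4% ± 7.24 (SD, n = 3), and Arf1 remained at 90.4% to 94.0% of it in every library. Class III, which is Arf6 alone, stood at 38.5% ± 6.63 and 22.4% ± 8.93.

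The ratio of Arf4 to Arf1 differed less between the groups than that of Arf4 to Arf5. Arf4 counts were 0.416, 0.582 and 0.393 of Arf1 counts in controls 1, 2 and 3, and 0.713, 0.689 and 0.650 in deleted 1, 2 and 3. The groups did not overlap, with control 2 the nearest to the other group. Arf2 counts were 0.0565 to 0.0604 of Arf1 counts in the controls, 0.0613 in deleted 1, 0.0857 in deleted 2 and 0.131 in deleted 3.

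Slc24a5 and Bysl were among the 3 genes whose pattern over the 5 samples was nearest to that of Arf4, by root mean square difference of centred log2 (scaled CPM + 1). Slc24a5 encodes a cation exchanger and Bysl a factor of small ribosomal subunit assembly. Their differences were 0.059 and 0.079 on the log2 scale. Slc24a5 had 26.7 and 26.8 scaled CPM in the 2 control samples and 103, 91.9 and 77.3 in deleted 1, 2 and 3. Of the ARF members, Arf1 was the nearest to Arf4, at 0.295, with 162 of 12349 genes nearer, followed by Arf2 at 0.42 with 499 nearer, and Arf6 was the farthest at 1.10. These distances describe 5 samples that share their libraries and the contrast on which Arf4 was picked.

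Proteins that load, switch off or are recruited by ARF GTPases were listed. Related GTPases (ARL and SAR), the COPII coat, and CREB3 factors with N-myristoylation genes were listed beside them. Together these 8 lists, called partner lists below, held 136 genes, 127 of them tested. The contrast was tested for these since they did not choose the family. The lists were still drawn up with earlier results of these data known, so their p values do not come from a blind choice. By edgeR's quasi-likelihood test with Benjamini-Hochberg adjustment, 0 of 127 passed, against 0% of all genes. DESeq2 called 7 of 128, 4 higher and 3 lower, against 3.37% of all genes. Among 12 tested ARF exchange factors, which load GTP, 4 lay above control and 8 below, with a median log2 fold change of -0.43. Of 22 GTPase-activating proteins, which switch ARFs off, 11 lay on each side, with a median of 0.05. Adap2 had 2.01 and 1.89 scaled CPM in the control samples and 0, 0.0260 and 0 in deleted 1, 2 and 3 (edgeR adjusted p = 0.387). Git2, also of this list, had a log2 fold change of 2.17 (SE 0.815, edgeR adjusted p = 0.467).

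Of 9 COPI coatomer subunits, the coat that Arf1 recruits, 6 lay above and 3 below control, with a median of 0.27 beside 0.11 over all genes tested. For none of the 9 did all libraries labelled Rbfox2-deleted lie above both control samples, or below both, where 14.9% and 17.2% of all genes tested did. Of 19 clathrin adaptor genes of the trans-Golgi and endosomes, 11 lay above control and 8 below, with a median of 0.16. Ap3d1 of this list was lower, at a log2 fold change of -3.42 (SE 1.31, edgeR adjusted p = 0.472). Ap1m1, the medium subunit of AP-1, averaged 114 ± 6.52 CPM over the control samples (SD, n = 2) and 292 ± 5.61 CPM over deleted 1, 2 and 3 (SD, n = 3), a log2 fold change of 1.363 (SE 0.260, edgeR adjusted p = 0.387). Of 23 effectors and cargo receptors, 10 lay above and 13 below (median -0.24). Tmed2, a COPI cargo receptor, had 45.6 ± 0.770 and 170.3 ± 21.3 CPM, and the ARF-binding protein Arfip1 had 26.5 ± 3.43 and 1.79 ± 1.27 CPM (SD, n = 2 and n = 3; edgeR adjusted p = 0.387 for both).

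Of 21 ARL and SAR GTPases, relatives of the ARFs, 10 lay above and 11 below control (median -0.10), with Sar1a at log2 0.97 (SE 0.489, edgeR adjusted p = 0.614) and Arl2 at -1.27 (SE 0.422, adjusted p = 0.415). Of 13 COPII genes, 5 lay above and 8 below (median -0.15), and Tfg had 24.5 ± 7.48 and 103 ± 10.5 CPM (SD, n = 2 and n = 3, edgeR adjusted p = 0.387). Sec31b of this list, at most 1.35 scaled CPM in any sample, was lower at -3.13 (SE 1.82, edgeR adjusted p = 0.692). Of 8 genes for CREB3 factors and N-myristoylation, 5 lay above (median 0.30), with Metap2, which exposes the glycine to be myristoylated, at 0.61 (SE 0.295, edgeR adjusted p = 0.597). Creb3l2 of this list was lower, at -2.92 (SE 1.64, edgeR adjusted p = 0.672). The DESeq2 calls, with adjusted p from 0.000242 to 0.0272, were Tmed2, Tfg, Ap1m1 and Sec23b among the higher and Adap2, Arfip1 and Osbp among the lower, of which Sec23b and Osbp are named only because they were called.

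**Figure D4:**
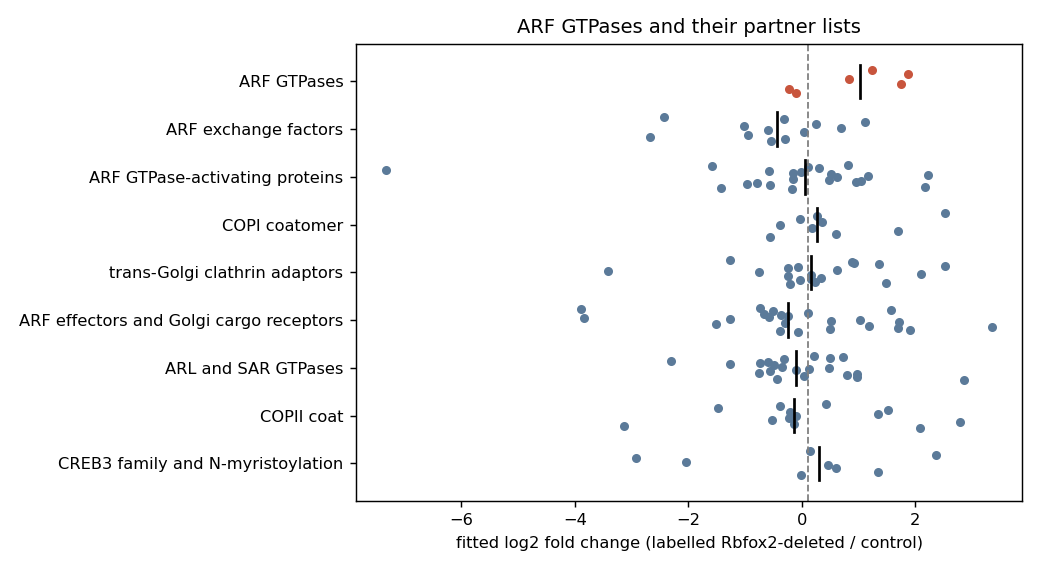
Fitted log2 fold change (x axis, libraries labelled Rbfox2-deleted over control) of each tested gene, with ARF members in red and the 8 partner lists in blue. Black bars are list medians and the dashed line is the median of all genes tested, 0.11. Partner lists spread on both sides of 0, with medians from -0.43 to 0.30.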

How the data were processed

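RNA of sorted stem cells was measured in 6 libraries. The authors deposited raw counts of reads per Ensembl gene; build mm10, Trimmomatic 0.39, featureCounts and DESeq2 1.36.0 are named in the list per the submitters' processing notes. For aligner, annotation, strand and multimapping settings, nothing was stated in the labels. Rows sharing an identifier (134 rows, 60 identifiers, no member) were summed, and 22831 identifiers matched a symbol. Exon lengths came from GENCODE M21 (GRCm38).

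Counts were fitted with edgeR 4.0.16 in R 4.3.3 (filterByExpr with minimum count 10 and minimum total 15, TMM, glmQLFit and glmQLFTest, two-sided, group only) over 12350 genes, with Benjamini-Hochberg adjustment at 0.05 and controls 1 and 3 summed. P values measure only the spread between these 5 samples. SE is the fold change over the square root of F. DESeq2 1.42.0 was an alternative. Scripts were tested on simulated data. The members and lists were chosen with earlier results of these data known. Named genes were the members, Rbfox2, the smallest p per direction in each list and the 3 nearest to Arf4, of which 1 is not reported here; Psd, Cyth4, Arcn1, Cope, Ap3d1, Sec31b and Creb3l2, which this rule also chose, had adjusted p of at least 0.472 by edgeR.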

Additional observations from a re-analysis of the deposited data

How the results depend on the processing

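Of the 6 members, Arf1, Arf2 and Arf4 kept a positive log2 fold change under all 14 alternatives, from 0.90 to 1.43 for Arf1, 1.59 to 2.12 for Arf2 and 1.40 to 1.82 for Arf4. Arf4 was at 1.40 with upper quartile scaling and 1.58 with no filter on low counts. Upper quartile scaling moved the median of all genes from 0.11 to -0.20, and relative to that median Arf4 was at 1.60 against 1.64. That median was -0.27 with the replicate block and 0.24 without controls 1 and 3, and relative to it Arf5 and Arf6 turned to 0.04 and 0.16 with the block. Arf3 turned to -0.20 with sex as a covariate and -0.072 without deleted 1, Arf5 to 0.17 with sex as a covariate, and Arf6 to 0.16 without control 2 and 0.18 without deleted 1. Apart from the dropped library or the added term, the cause was not tested. With sex as a covariate, the group difference rests on deleted 2 alone against the controls, since deleted 1 and 3 differ from them in sex as well. The Rbfox2 counts of deleted 2 go against its label. The difference in Arf4 share was 12.8 percentage points with the longest transcript as length and 13.1 with no length. DESeq2 called 477 genes, 7 of them in the partner lists, and every edgeR alternative called 0, with 371 (sex as a covariate) to 2924 (without deleted 1) at an unadjusted p under 0.05, against 1221.

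Same-numbered libraries did not deviate together (correlations -0.048, -0.020 and 0.046). Because controls 1 and 3 are nearly the same library, these correlations are not independent and cannot exclude pairing. The numbers were not taken as pairs. With a replicate block over 6 separate libraries, 0 genes were called and Arf4 was at 1.78. Leaving out 1 library at a time, Arf3 ranged from -0.072 to 1.15, Arf6 from -0.49 to 0.18, Arf4 from 1.63 to 1.82 and its share difference from 7.54 to 10.96 points. Fits without control 2, or without controls 1 and 3, leave 1 control sample, which is then assumed to vary like the other group. The lowest count of a member in any library was 514. Each library labelled Rbfox2-deleted was shallower than every control, so depth goes with the group, and its part was not tested.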
